A study of Mus musculus with 2 samples.

Results

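Superficial urothelium of the newborn mouse ureter was described here from its uroplakin-high nuclei, in mice that lacked the ΔN isoform of p63 in the ureter epithelium (DNp63cKO) and in control mice. Members were chosen by expression. A nucleus with 300 or more detected genes and at most 5% mitochondrial unique molecular identifiers (UMIs, each standing for 1 captured RNA molecule) was called epithelial if it had a UMI of 3 or more of 12 epithelial genes, such as Cdh1, Epcam and Krt18, and of at most 1 of 7 muscle, fibroblast and endothelial genes. Of the epithelial nuclei of both libraries together, the 33.3% with the highest share of UMIs from the 4 uroplakin genes Upk1a, Upk1b, Upk2 and Upk3a were taken. Those with 3 or more UMIs of the basal genes Krt5, Lamb3, Itgb4 and Itga3, or with 2 or more of the cycling genes Mki67, Top2a and Cenpf, were then dropped. This left 1135 of 14590 deposited nuclei, 398 from DNp63cKO and 737 from control ureters.

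The libraries were made from nuclear RNA of flash-frozen ureters at postnatal day 0. The DNp63cKO pool held 14 mice with a Pax2-cre allele, floxed DNp63 alleles and an R26mTmG reporter allele (Pax2-cre/+;DNp63fl/fl;R26mTmG/+). The control pool held 13 mice whose genotype the labels give as wt, so the cre and the reporter cannot be told apart from the deletion. Pax2-cre acts in the nephric duct and its derivatives, which include the ureter epithelium. Each genotype was 1 pool and 1 library. No test between genotypes was possible, and every interval below covers counting error only, not differences between mice.

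The urothelium is a layered epithelium with basal cells on the basement membrane, intermediate cells above them and superficial (umbrella) cells facing the urine. Superficial cells make uroplakins, membrane proteins that assemble into the plaques of the apical surface and are carried there in fusiform vesicles. The ΔN form of p63 is made by basal cells of layered epithelia and is known to sustain their identity and adhesion.

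The class was first set against its definition. Uroplakin UMIs made up a median of 1.49% of a member's UMIs in DNp63cKO and 1.51% in control. In the other epithelial nuclei the medians were 0.426% in DNp63cKO and 0.373% in control, and in nuclei with mesenchymal markers, which should lack uroplakins, 0.160% and 0.153%. The share ran on without a gap across the cut at 0.972%. The 3 members just inside it had 25 uroplakin UMIs of 2569, 18 of 1851 and 13 of 1338, and the 3 nuclei just outside had 26 of 2678, 19 of 1956 and 22 of 2266. In all, 179 DNp63cKO and 400 control epithelial nuclei lay within 20% of the cut, so the class is the upper range of a continuous measure rather than a separate type.

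**Figure D1:**
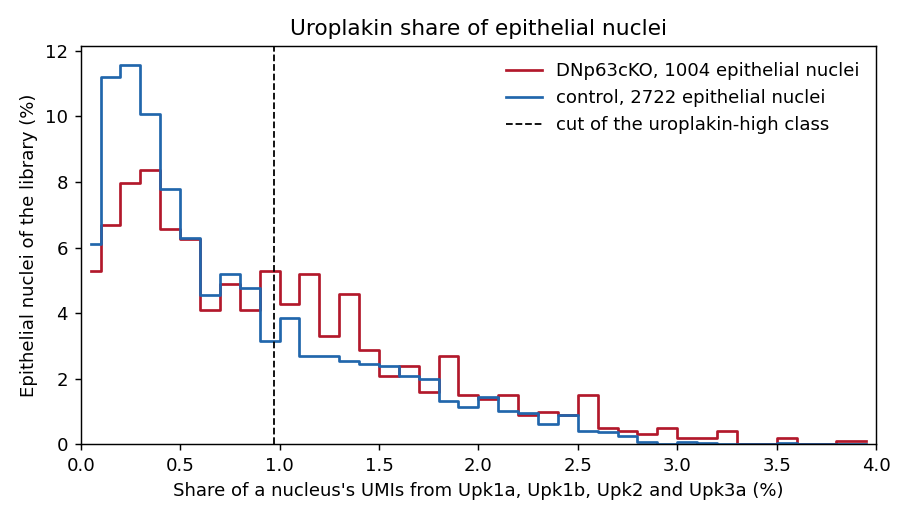
The share of each epithelial nucleus's UMIs that came from Upk1a, Upk1b, Upk2 and Upk3a (%, horizontal) against the percent of the library's epithelial nuclei in each step (vertical), for 1004 DNp63cKO and 2722 control nuclei. Nuclei of both libraries lie on both sides of the dashed cut at 0.972%, and the DNp63cKO curve is the lower one at the low end.

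Members made up 39.6% of the epithelial nuclei in DNp63cKO (398 of 1004, exact binomial 95% interval 36.6 to 42.7) and 27.1% in control (737 of 2722, 25.4 to 28.8). The rule sets this share through the uroplakin cut, so it describes the classes and tests nothing. Basal-marker nuclei were 15.1% of the epithelial nuclei in DNp63cKO and 16.2% in control, uroplakin-low nuclei 37.7% and 50.9%, and cycling nuclei 7.47% and 5.84%. As a share of all kept nuclei the order of the libraries was the other way round, with members at 7.25% in DNp63cKO and 8.29% in control. The members of the DNp63cKO library were shallower, at a median of 1569.5 UMIs against 2138 in control. The labels do not give the sexes of the pooled mice, and a Y-linked UMI was found in 32.7% of the DNp63cKO members and 24.0% of the control members, a Xist UMI in 64.8% and 73.3%. The libraries shared 58 cell barcodes, and 10 members carried one.

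Genes outside the rule placed the members among superficial cells in both libraries. Levels are given as CPM, the UMIs of a gene per 1000000 UMIs of the summed nuclei of a class, and differences as log2 ratios of CPM + 5. These nuclei were chosen by expression, so the contrast with other epithelial nuclei is a description. Of 12 superficial markers that the rule did not use, 9 were higher in members than in other epithelial nuclei in both libraries, where 24.9% of all 10308 genes compared were. Lower in both libraries were 2, Upk3bl and Prom1, against 46.8% of all genes. A Upk3bl UMI was found in 0.503% of DNp63cKO and 0.543% of control members, against 3.96% and 3.58% of other epithelial nuclei. For Prom1 these shares were 1.51% and 0.543%, against 2.97% and 2.02%. Psca, a surface antigen of superficial cells, had 2826 CPM in members against 745 in other epithelial nuclei of DNp63cKO, and 2310 against 615 in control. Upk3b, a further uroplakin, was higher by 1.50 in DNp63cKO and 1.25 in control on the log2 scale, and Snx31, a sorting nexin of uroplakin-bearing endosomes, by 1.07 and 1.06. Krt20, the keratin of mature umbrella cells, was higher by only 0.38 in DNp63cKO and 0.75 in control. Pparg, a regulator of urothelial differentiation, differed by 0.07 in DNp63cKO and -0.05 in control.

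Basal markers outside the rule were lower in members. Of 10 with enough UMIs, 9 were lower in both libraries, where 46.8% of all genes were, and their median difference was -2.05 in DNp63cKO and -2.02 in control. Pdpn (podoplanin, a basal surface protein) differed by -3.86 in DNp63cKO and -2.50 in control, and Jag2 (a Notch ligand) by -3.79 and -2.66. The cadherin Cdh3 differed by -2.18 and -2.30, and the laminin chain Lama3 by -2.20 and -2.14. The long noncoding RNA H19 differed by -3.80 and -2.58. Krt17 had no UMI in members of either library, nor in the other epithelial nuclei.

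Other genes were higher along with the uroplakins in both genotypes. In all, 87 of the 10308 genes (0.844%) were at least 2-fold higher in members than in other epithelial nuclei in both libraries, and 374 (3.63%) at least 2-fold lower. Bpifb1, a secreted protein of the BPI fold family, had the largest difference outside the rule, 2.38 in DNp63cKO and 2.18 in control. Acer2, an alkaline ceramidase of the Golgi, had 3515 CPM in members against 1151 in other epithelial nuclei of DNp63cKO, and 3934 against 1035 in control. Ndrg2, a differentiation-associated gene, differed by 1.67 and 1.69, the adhesion gene Nectin4 by 1.55 and 1.43, and Rab11fip5, an effector of Rab11 vesicle traffic, by 1.42 and 1.64. Rhov, Fam25c, Ksr2 and S100a1 also stood at least 1.55 above the other nuclei in both libraries.

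Before the genotypes are compared, the members' own variation has to be given, because it followed the library. Grouping the members by similarity of expression, with the genes of the rule left out, gave 3 sub-clusters. Sub-cluster 1 held 337 DNp63cKO members (84.7%) and 24 control members (3.26%). Sub-cluster 0 held 43 DNp63cKO members (10.8%) and 400 control members (54.3%), and sub-cluster 2 held 18 (4.52%) and 313 (42.5%). With 1 library per genotype, a sub-cluster held mostly by one library cannot be told apart from that library. The genotype values below therefore compare mainly sub-cluster 1 of DNp63cKO with sub-clusters 0 and 2 of control, and sub-cluster 0 was the only one with 30 or more nuclei of each.

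The control members fell into 2 large groups that differed in named signalling and matrix genes. As the clusters were made from the same counts, these values describe them. Sub-cluster 2 of the control library had 566 CPM of Sdc1 (syndecan-1, a heparan sulfate proteoglycan), against 155 in its sub-cluster 0. Shh, the ligand that the ureter epithelium sends to the surrounding mesenchyme, had 136 CPM in sub-cluster 2 and 30.9 in sub-cluster 0. Trf (transferrin) had 174 and 36.7 CPM, and Igfbp5 325 and 76.3 CPM. In the other direction, the cadherin gene Cdh20 had 16.8 CPM in sub-cluster 2 and 202 in sub-cluster 0. Phldb2, a cortical scaffold gene, had 282 and 1172 CPM. Sub-cluster 2 also had the higher summed level of the 14 basal markers, 1824 CPM against 1455 CPM in sub-cluster 0, and the lower one of the 12 superficial markers, 14996 CPM against 17819 CPM.

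**Figure D2:**
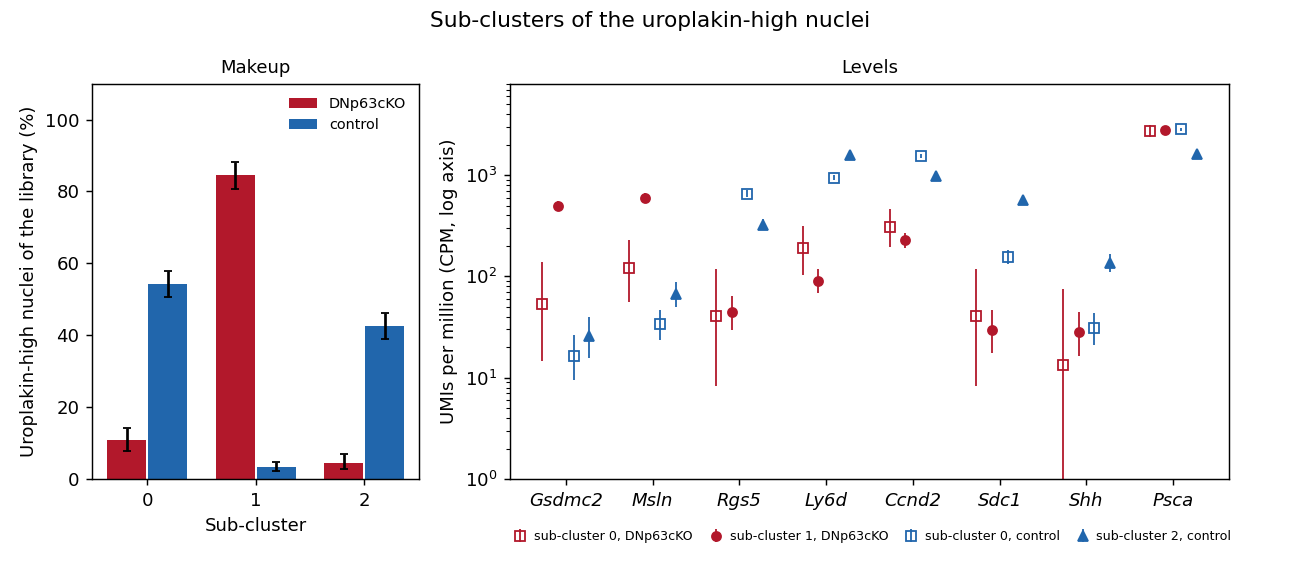
Left, the percent of each library's uroplakin-high nuclei in sub-clusters 0, 1 and 2, with exact binomial 95% intervals. Right, levels of 8 genes (CPM, log axis, 95% Poisson counting intervals) in the sub-clusters that hold most members; sub-cluster 1 of DNp63cKO stands apart by Gsdmc2 and Msln, while Rgs5, Ly6d and Ccnd2 were low in both DNp63cKO groups.

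Between genotypes, the defining genes of the superficial cell were present at near-equal levels. Upk1a had 4308 CPM in DNp63cKO members and 3851 CPM in control members, a log2 ratio of 0.16. Upk1b had 6454 and 7242 CPM (-0.17), and Upk3a had 5241 and 5029 CPM (0.06). Upk2 differed most, with 1133 CPM in DNp63cKO and 869 CPM in control (0.38). Since the uroplakin share chose the members, these values carry no independent information on the genotypes.

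Trp63 itself had 71 UMIs in DNp63cKO members and 168 in control members, which is 99.7 and 91.4 CPM and a log2 ratio of 0.12 (95% interval of the count ratio -0.30 to 0.53). Counts per gene do not show which exons or isoforms the UMIs came from, so this level does not check the deletion of the ΔN form. In the other epithelial nuclei Trp63 had 181 CPM in DNp63cKO and 272 CPM in control (-0.57). Mesenchymal-marker nuclei, which should lack it, had 31.4 and 55.3 CPM.

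Of 10887 genes with 20 or more UMIs over the members of both libraries, 220 (2.02%) were at least 2-fold higher in DNp63cKO members and 256 (2.35%) at least 2-fold lower. The median over all of them was 0.00. Markers of other cells moved with the genotype in these nuclei. All 8 smooth muscle markers were higher in DNp63cKO members, with a median of 1.02 and a summed level of 1270 CPM against 704 CPM in control members. All 8 fibroblast markers were higher too, with a median of 0.63 and 719 CPM against 370 CPM. Mesenchymal-marker nuclei themselves summed to 10000 and 11536 CPM for smooth muscle markers and 7786 and 8801 CPM for fibroblast markers, and the summed level of endothelial markers in members was 68.8 and 42.4 CPM. Immune markers summed to 37.9 and 9.24 CPM, with Cd74 at 0 in both libraries, and glial and neuronal markers to 22.5 and 9.79 CPM, with Sox10 at 0 in both. The 7 collecting duct and kidney tubule markers summed to 8.42 and 5.98 CPM, with Aqp2, Avpr2, Umod and Slc12a1 at 0. Of the 220 higher genes, 115 were more abundant in mesenchymal-marker nuclei than in members of DNp63cKO, as were 5322 of all 10887 genes tested. The part of this RNA in the gene differences was not tested. The 24 genes named next were chosen on this point. Each had to be at least as abundant in members as in mesenchymal-marker nuclei in the library where it was higher. This is a condition of the choice and says nothing on the source of their RNA.

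Among the 24 named genes, the largest differences upward were in gasdermin C genes and mesothelin. Spp1 had too few UMIs to be named, with 45 in sub-cluster 1 of DNp63cKO and 1 in sub-cluster 0 of control. Gsdmc2, of the gasdermin family whose best-studied members form membrane pores once cleaved, had 428 CPM in DNp63cKO members (305 UMIs) and 21.2 CPM in control members (39 UMIs), a log2 ratio of 4.05 (interval of the count ratio 3.85 to 4.86). Its neighbour Gsdmc3 had 185 CPM and 14.7 CPM (3.27). The genes lie side by side on chromosome 15 (GRCm38, chr15:63824346-63845177 and chr15:63857724-63878558, both on the minus strand). They share sequence, since 45.7% of the 60-base stretches of Gsdmc2 transcripts and 40.7% of those of Gsdmc3 also occur in other gasdermin C genes, so the split of UMIs between them is uncertain. Msln (chr17:25748613-25754378), a surface glycoprotein best known from mesothelium, had 538 CPM in DNp63cKO and 48.9 CPM in control (3.33). The 6 mesothelial markers summed to 3115 CPM in DNp63cKO members and 2443 CPM in control members, and the 3 tested (Msln, Upk3b and Krt19, all also expressed by urothelium) were higher, with a median of 0.26. Wt1 had 0 UMIs in DNp63cKO members and 1 in control members, Lrrn4 1 and 0, and Muc16 1 in each.

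These upward differences were also seen outside the class, in part at higher levels. Gsdmc2 had 600 CPM in the other epithelial nuclei of DNp63cKO and 139 CPM in those of control, so within DNp63cKO it was more abundant in the nuclei with fewer uroplakins. After thinning every nucleus to 700 UMIs, Gsdmc2 was detected in 16.8% of the DNp63cKO members (66 of 393) and 1.26% of the control members (9 of 716). Without thinning the shares were 31.4% and 4.34%. In mesenchymal-marker nuclei the thinned shares were 9.65% in DNp63cKO and 3.62% in control, so the control members lay at or below that background and the DNp63cKO members above it. The sub-clusters divided the signal, with 496 CPM in sub-cluster 1 of DNp63cKO but 54.0 CPM (4 UMIs) in sub-cluster 0 of the same library. Within sub-cluster 0 the Gsdmc2 ratio was 1.46, with an interval of -0.31 to 3.33 that includes 0. Gsdmc3 had 0 UMIs in sub-cluster 0 of DNp63cKO and 15 (14.5 CPM) in that of control, too few to give a direction there. Msln had 597 CPM in sub-cluster 1 and 122 CPM in sub-cluster 0 of DNp63cKO.

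Transport genes were among the rest. Scnn1b, the β subunit of the epithelial sodium channel, had 271 CPM in DNp63cKO members and 73.4 CPM in control members (1.82), and Scnn1g, the γ subunit, had 446 and 254 CPM (0.80). Car2, the carbonic anhydrase that interconverts carbon dioxide and bicarbonate, had 115 and 15.2 CPM (2.57). Slc40a1, the iron exporter ferroportin, had 112 and 28.8 CPM (1.79). Of the 14 tested members of the transport list 6 were higher, where 50.2% of all genes were, 8 lower, where 49.8% were, 3 were at least 2-fold higher, against 2.02% of all genes, and none 2-fold lower, against 2.35%, with a median of -0.10. The water channel gene Aqp3 had 556 and 760 CPM (-0.45), while Atp1b1, a β subunit gene of the sodium pump, had 397 and 223 CPM (0.82).

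The remaining genes among the 12 named for upward differences were a mixed group. Gpc5, a glypican, had 309 CPM in DNp63cKO members and 67.4 CPM in control members (2.12). Igfbp7, a secreted protein of the IGF-binding family, had 716 and 203 CPM (1.79), but it was also abundant in mesenchymal-marker nuclei, at 523 and 592 CPM. Bglap3, an osteocalcin-related gene, had 435 and 129 CPM (1.72) and shares 8.91% of its 60-base stretches with other genes. The kinase gene Camk1, the annotated olfactory receptor gene Olfr1459 and Ccdc184 stood at 1.85, 2.24 and 1.79.

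Of the named genes, the largest differences downward included Rgs5, Ly6d, Sdc1 and Ccnd2. Rgs5 (chr1:169655501-169695813), an inhibitor of G-protein signalling that is also a pericyte marker, had 47.7 CPM in DNp63cKO members (34 UMIs) and 510 CPM in control members (938 UMIs), a log2 ratio of -3.29 (interval -3.96 to -2.92). Ly6d (chr15:74762056-74763620), a GPI-anchored surface protein, had 124 CPM and 1202 CPM (-3.23), and Sdc1 (chr12:8771323-8793715) had 39.3 and 328 CPM (-2.91). Ccnd2 (chr6:127125162-127152193), cyclin D2 of the G1 phase, had 241 and 1304 CPM (-2.41). All 4 were low in DNp63cKO members of sub-cluster 0 as well as of sub-cluster 1, though Rgs5 and Sdc1 had only 3 UMIs each in the former. In sub-cluster 2 of DNp63cKO, with 18 nuclei, Ly6d had 603 CPM (19 UMIs) and Sdc1 222 CPM (7 UMIs). Rgs5 had 127 CPM (4 UMIs) and Ccnd2 349 CPM (11 UMIs) there. Ly6d had 189 CPM in sub-cluster 0 and 90.6 CPM in sub-cluster 1 of DNp63cKO, against 945 CPM in sub-cluster 0 and 1571 CPM in sub-cluster 2 of control.

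For these 4 genes the members stood apart from the rest of the epithelium. Ly6d had 789 CPM in the other epithelial nuclei of DNp63cKO and 1197 CPM in those of control, a log2 ratio of -0.60 against -3.23 in members. The ratio in other epithelial nuclei was -0.79 for Rgs5, -0.85 for Sdc1 and -0.15 for Ccnd2. In control, Ly6d was as abundant in members as in other epithelial nuclei (difference 0.01), whereas in DNp63cKO it was lower in members by 2.63 on the log2 scale. Ccnd2 was 0.79 higher in members than in other nuclei of control and 1.47 lower in those of DNp63cKO. At 700 UMIs per nucleus, Ly6d was detected in 6.36% of DNp63cKO members (25 of 393) and 47.9% of control members (343 of 716). Without thinning these were 14.6% and 71.9%, and the thinned share in mesenchymal-marker nuclei was 6.02% in DNp63cKO and 16.8% in control. The DNp63cKO members were thus at the background share for Ly6d. These differences between classes rest on 1 library per genotype and were not tested.

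Crip2, a LIM-domain gene, had the same form, with 40.7 CPM in DNp63cKO members and 151 CPM in control members (-1.77), against 0.04 in the other epithelial nuclei. Upward, Gpc5 had 2.12 in members against 0.64 in other epithelial nuclei, Msln 3.33 against 1.78, and Gsdmc2 4.05 against 2.08. Over all genes, the other epithelial nuclei had 154 of 12266 genes (1.26%) at least 2-fold higher and 174 (1.42%) at least 2-fold lower in DNp63cKO. Of the 215 genes 2-fold higher in members that were also measured in the other nuclei, 49 were 2-fold higher there and 196 higher by any amount, against 49.5% of all genes measured there. Of 246 genes lower in members, 59 were 2-fold lower in the other nuclei and 209 lower by any amount, against 50.5%.

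The other downward genes were also lower in the other epithelial nuclei of DNp63cKO. Chst2, a sulfotransferase of glycan synthesis, had 15.4 CPM in DNp63cKO members and 160 CPM in control members (-3.02), and -2.15 in other epithelial nuclei. Pla2r1, a phospholipase A2 receptor, had 105 and 444 CPM (-2.02), and -2.10 in the others. Within sub-cluster 0 Pla2r1 had 419 CPM in DNp63cKO and 614 CPM in control (-0.55). The adhesion gene Nectin1 had 19.6 and 129 CPM (-2.44), and -1.24 in the others. The amino acid transporter gene Slc43a2 had 8.42 and 69.1 CPM (-2.46), and -1.62 in the others. Unc13c, of the vesicle priming family, had 36.5 and 156 CPM (-1.95), and -0.80 in the others.

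When sub-cluster 0 was compared alone, 14 of the 24 named genes were at least 2-fold apart in the same direction. Of all 8568 genes compared there, 535 were at least 2-fold higher and 1150 at least 2-fold lower. Among the 14 named genes, the counting intervals of Gsdmc2, Car2, Nectin1, Slc43a2 and Lypd3 included 0 in this sub-cluster. The 24 genes were picked as the extremes among all members, which include these nuclei, so this is no independent check. The upward ratios of Scnn1b, Camk1, Igfbp7, Slc40a1 and Ccdc184 were then 0.98, 0.89, 0.65, 0.65 and 0.56. The downward ratios of Nrarp, Unc13c and Ivl were -0.63, -0.26 and -0.17, beside that of Pla2r1. The intervals of these upward and downward ratios all included 0, except that of Pla2r1 (-1.12 to -0.03).

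**Figure D3:**
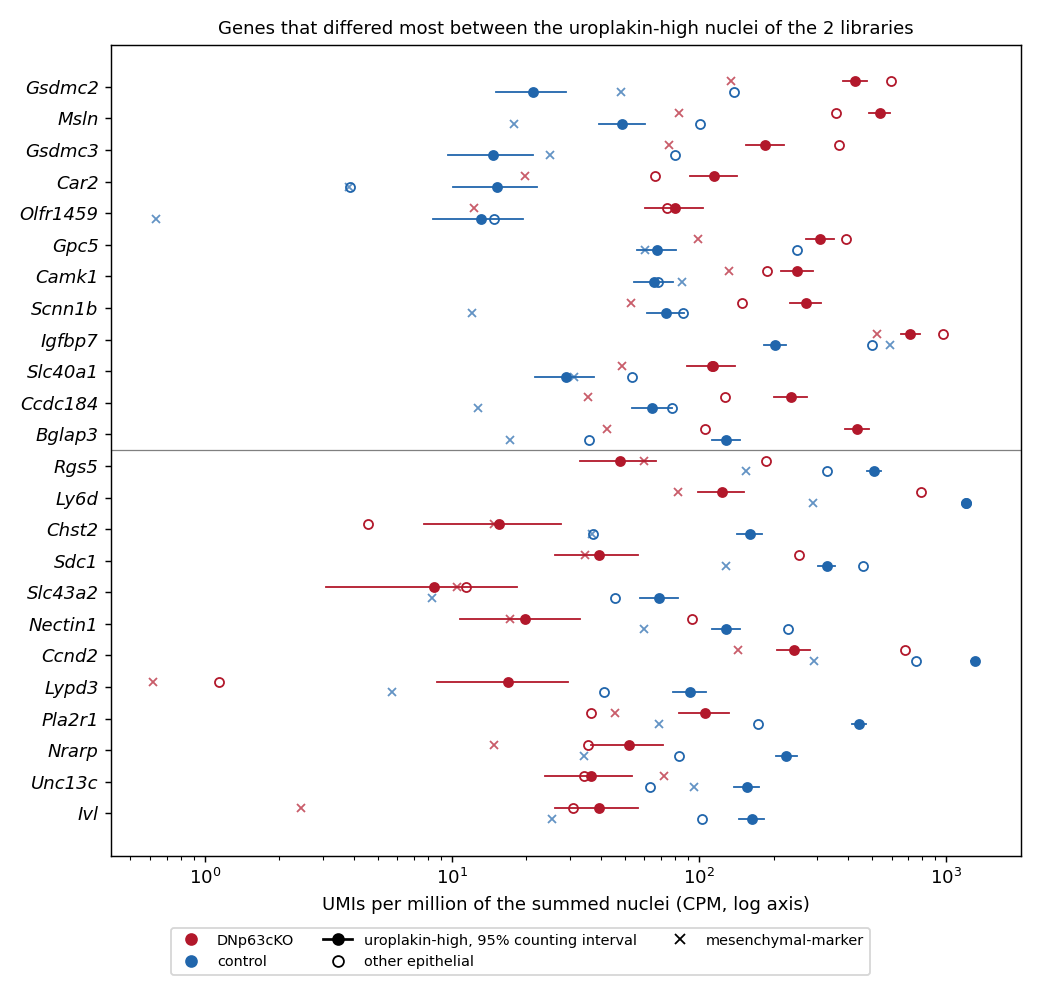
Levels (CPM, log axis) of the 12 genes with the highest and the 12 with the lowest DNp63cKO over control ratio in uroplakin-high nuclei. Only genes that passed the filters for named genes were ranked. Filled circles are uroplakin-high nuclei (95% Poisson counting intervals), open circles other epithelial and crosses mesenchymal-marker nuclei of the same library. For Rgs5, Ly6d, Sdc1 and Ccnd2 the open DNp63cKO circle lies well above the filled one, while Gsdmc2 and Gsdmc3 were higher in the other epithelial nuclei of DNp63cKO.

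The bases directly before the start of 4 genes are shown, 1 picked as an example of each kind of behaviour. RefSeq's table of promoters (build GRCm38.p6) held 8 of the higher and 9 of the lower named genes and 2 uroplakins. Gsdmc3 was high in DNp63cKO, Rgs5 was low mainly in the members, Ivl was lower in members and in other epithelial nuclei of DNp63cKO, and Upk3a was near-equal. Each window holds the 250 bases before the start on the gene's strand, and capitals mark a match to a searched motif. The windows are chr15:63878559-63878808 for Gsdmc3 (minus strand), chr1:169655251-169655500 for Rgs5 (plus), chr3:92573736-92573985 for Ivl (minus) and chr15:85016891-85017140 for Upk3a (plus).
Gsdmc3: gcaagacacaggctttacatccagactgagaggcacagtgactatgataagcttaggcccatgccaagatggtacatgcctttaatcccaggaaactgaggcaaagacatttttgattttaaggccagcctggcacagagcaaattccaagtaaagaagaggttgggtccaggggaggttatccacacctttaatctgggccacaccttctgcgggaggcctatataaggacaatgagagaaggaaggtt
Rgs5: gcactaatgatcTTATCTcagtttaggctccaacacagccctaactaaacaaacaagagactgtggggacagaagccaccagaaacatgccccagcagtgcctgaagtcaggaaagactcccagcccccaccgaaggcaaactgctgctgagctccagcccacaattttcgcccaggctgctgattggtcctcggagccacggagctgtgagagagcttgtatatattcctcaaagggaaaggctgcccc
Ivl: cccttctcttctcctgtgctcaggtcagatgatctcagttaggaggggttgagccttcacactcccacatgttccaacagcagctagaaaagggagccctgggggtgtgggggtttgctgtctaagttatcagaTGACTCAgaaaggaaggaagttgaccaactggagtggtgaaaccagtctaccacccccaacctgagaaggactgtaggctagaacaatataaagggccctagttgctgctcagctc
Upk3a: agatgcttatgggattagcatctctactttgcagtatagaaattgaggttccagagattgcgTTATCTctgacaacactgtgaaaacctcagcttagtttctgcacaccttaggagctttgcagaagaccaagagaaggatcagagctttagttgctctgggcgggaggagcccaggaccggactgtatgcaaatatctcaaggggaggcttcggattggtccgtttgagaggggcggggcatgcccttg

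Both strands were searched for letters known to be read by 6 factor families of the urothelium. The p63 letters, CATG followed by 6 bases of any kind and CATG again, occur in 0.490% of all 32851 windows of this length, the Grainyhead letters AACCNGTT in 1.79%, the GATA letters AGATAA in 9.99%, the AP-1 letters TGANTCA in 6.75% and the KLF letters CCCCACCC in 9.05%. The RBPJ letters GTGGGAA, read in Notch signalling, occur in 5.42%. Rgs5 held GATA letters on the opposite strand, starting 238 bases before the start, and Upk3a the same letters 188 bases before it. Ivl held AP-1 letters 116 bases before the start, and Gsdmc3 held none of the 6 motifs. No window of the 8 higher and 9 lower named genes in the table held the p63, Grainyhead or RBPJ letters. These are matches of letters in 1 window per gene and say nothing on binding.

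The lists of genes show which functions these differences touched. The superficial list, with the rule's genes left out, had 5 of 10 tested members higher and 5 lower in DNp63cKO members, none of them 2-fold, and a median of 0.13. Sprr1a, a small proline-rich protein, was its most abundant gene, with 11552 CPM in DNp63cKO members and 7881 CPM in control members (0.55), and Mal, a raft protein of apical transport, had 1352 and 1001 CPM (0.43). Krt20 had 342 and 581 CPM (-0.75), and Grhl3, a transcription factor of terminal differentiation, 331 and 469 CPM (-0.50). At 700 UMIs per nucleus, Krt20 was detected in 17.0% of DNp63cKO members (67 of 393) and 30.6% of control members (219 of 716), against 5.06% and 6.45% of mesenchymal-marker nuclei. Without thinning, the members' shares were 34.2% and 57.8%. Psca, by contrast, was detected after thinning in 73.3% and 61.5% of members and 19.9% and 17.8% of mesenchymal-marker nuclei.

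Vesicle traffic genes, which serve the delivery of uroplakins to the apical membrane, were close to even. Among the 15 tested were 9 higher and 6 lower ones, none by 2-fold, and their median was 0.12. Rab27b, a Rab protein of fusiform vesicle delivery, had 1232 CPM in DNp63cKO members and 1234 CPM in control members (0.00). Urothelial transcription factors had 7 of 13 higher, 6 lower and a median of 0.10. Gata3 had 606 and 476 CPM (0.35) and Klf5 379 and 319 CPM (0.24), while Pparg had 619 and 779 CPM (-0.33) and its partner Rxra 121 and 205 CPM (-0.74). In the other epithelial nuclei 14 of 15 of these factors were lower in DNp63cKO, where 50.5% of all genes were, with a median of -0.24.

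Genes known as p63 targets in skin were lower in the members. Of 14 tested, 13 were lower, against 49.8% of all genes, and 8 were at least 2-fold lower, against 2.35%, with a median of -1.18. In the other epithelial nuclei 14 of 16 were lower too, against 50.5% of all genes. There 1 of 16 was 2-fold lower, against 1.42%, and the median was -0.47. Sfn, the 14-3-3σ protein of keratinocytes, had 668 CPM in DNp63cKO members and 1559 CPM in control members (-1.22), against -0.54 in other epithelial nuclei. Itga6, the integrin chain of hemidesmosomes, had 241 and 577 CPM (-1.24), with the same ratio of -1.24 in the others. Ripk4, a kinase of epidermal differentiation, had 129 and 299 CPM (-1.18), and Fat2, a large cadherin, 46.3 and 111 CPM (-1.18). Fgfr2 was the member that was higher, with 147 and 128 CPM (0.19).

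Desmosome genes, which overlap with that list, had 7 of 8 lower, against 49.8% of all genes, 1 of them 2-fold, against 2.35%. Their median was -0.64. In the other epithelial nuclei 7 of 8 were lower as well, against 50.5% of all genes, with a median of -0.38. Dsp (desmoplakin) had 262 CPM in DNp63cKO members and 484 CPM in control members (-0.87), Jup (plakoglobin) 154 and 269 CPM (-0.78), and Dsc2 136 and 223 CPM (-0.69). Pkp1 had 3 UMIs against 48 (-1.76), and Pkp2 was the gene that was higher, with 42.1 and 34.8 CPM (0.24). Tight junction genes were close to even, with 7 of 16 higher, 9 lower, none 2-fold, and a median of -0.10. The claudin gene Cldn8 had 564 and 440 CPM (0.36) and Ocln, occludin, 163 and 110 CPM (0.54), whereas the polarity gene Pard3 had 109 and 191 CPM (-0.77).

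Notch genes were lower apart from Hes1 and Rbpj. Of 9 tested in members, 7 were lower, against 49.8% of all genes, and 4 at least 2-fold lower, against 2.35%. Their median was -0.98. In the other epithelial nuclei 9 of 10 were lower, against 50.5%, and 2 were 2-fold lower, against 1.42%. The median there was -0.30. The receptor genes Notch1 and Notch3 had 43.5 and 67.4 CPM in DNp63cKO members, against 170 and 138 CPM in control members (-1.85 and -0.98). The ligand gene Jag1 had 28.1 and 73.4 CPM (-1.25). Nrarp, a target that feeds back on Notch signalling, had 51.9 and 225 CPM (-2.01). Hes1, the classical transcriptional target, was higher instead, with 823 and 475 CPM (0.79), and 0.43 in the other epithelial nuclei. The Notch median moved to -0.12 when only sub-cluster 0 was compared.

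Genes of the cornified envelope split. Ivl (involucrin) had 39.3 CPM in DNp63cKO members and 163 CPM in control members (-1.92), but 81.0 and 91.8 CPM within sub-cluster 0 (-0.17). Lypd3, a Ly6-related surface protein, had 16.8 and 91.9 CPM (-2.15). Sprr2a3 was the member that was 2-fold higher, with 705 and 260 CPM (1.42). As 55.5% of its 60-base stretches occur in other transcripts, mostly of Sprr2 copies, the gene of origin is uncertain. The list as a whole had 4 of 10 genes higher, against 50.2% of all genes, 6 lower, against 49.8%, and a median of -0.19. At least 2-fold were 2 lower genes, against 2.35%, and 1 higher gene, against 2.02%. Among keratins, Krt7 had 978 and 1733 CPM (-0.82) and Krt8 2420 and 2856 CPM (-0.24), while Krt19 had 2004 and 1918 CPM (0.06).

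Signals from the epithelium showed both directions. Shh had 28.1 CPM in DNp63cKO members and 75.6 CPM in control members (-1.28), with the same ratio in other epithelial nuclei, and Wnt4 had 358 and 183 CPM (0.95), against 0.26 in the others. Of 7 such genes 3 were higher, against 50.2% of all genes, and 4 lower, against 49.8%. At least 2-fold lower was 1, against 2.35%, and none was 2-fold higher. All 6 tested genes of the EGF family and its receptors were lower, against 49.8% of all genes, 1 of them 2-fold, against 2.35%, with a median of -0.43. Areg, the ligand amphiregulin, had 1 UMI in DNp63cKO members and 47 in control members, and Egfr had 102 and 159 CPM (-0.61).

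Lipid genes tied to PPAR had 10 of 13 lower, against 49.8% of all genes, and a median of -0.27. At least 2-fold were 2 lower genes, against 2.35%, and 1 higher gene, against 2.02%. Fabp4, a fatty acid carrier, had 39.3 CPM in DNp63cKO members and 101 CPM in control members (-1.25), and was 0.50 higher in the other epithelial nuclei of DNp63cKO. In the mesenchymal-marker nuclei Fabp4 had 162 and 141 CPM. Plin2, a lipid droplet coat protein, had 28 UMIs in DNp63cKO members and 171 in control members (-1.15), and Lpl, lipoprotein lipase, 35.1 and 8.70 CPM (1.55), below the 67.6 and 72.5 CPM of mesenchymal-marker nuclei. Of the gasdermins outside the C group, Gsdma had 2 UMIs in DNp63cKO members against 34 in control members (-1.59), Gsdmd 5 against 36 (-1.03) and Gsdme 19 against 51 (-0.05).

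Immediate early and energy genes were close to even in the members. The 13 immediate early genes had 7 higher and 6 lower members and a median of 0.01. The 15 genes of oxidative phosphorylation had 7 higher and 8 lower and a median of -0.05 in members, whereas all 15 were higher in the other epithelial nuclei of DNp63cKO, where 49.5% of all genes were, with a median of 0.40. Targets of p53 were lower on the median, at -0.31. Of 12 tested, 4 were higher, against 50.2% of all genes, and 8 lower, against 49.8%. At least 2-fold lower was 1, against 2.35%, and none was 2-fold higher. The list of cell-cycle exit genes held cyclins and cyclin-dependent kinases, such as Ccnd2 and Cdk4, as well as inhibitors. Of its 9 tested genes 7 were lower, against 49.8% of all genes, Ccnd2 by most. As the list is mixed, this count gives no direction for exit. At least 2-fold were 2 lower genes, against 2.35%, and 1 higher gene, against 2.02%. The inhibitor gene Cdkn1c had 33.7 and 8.16 CPM (1.56), below the 149 and 153 CPM of mesenchymal-marker nuclei.

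**Figure D4:**
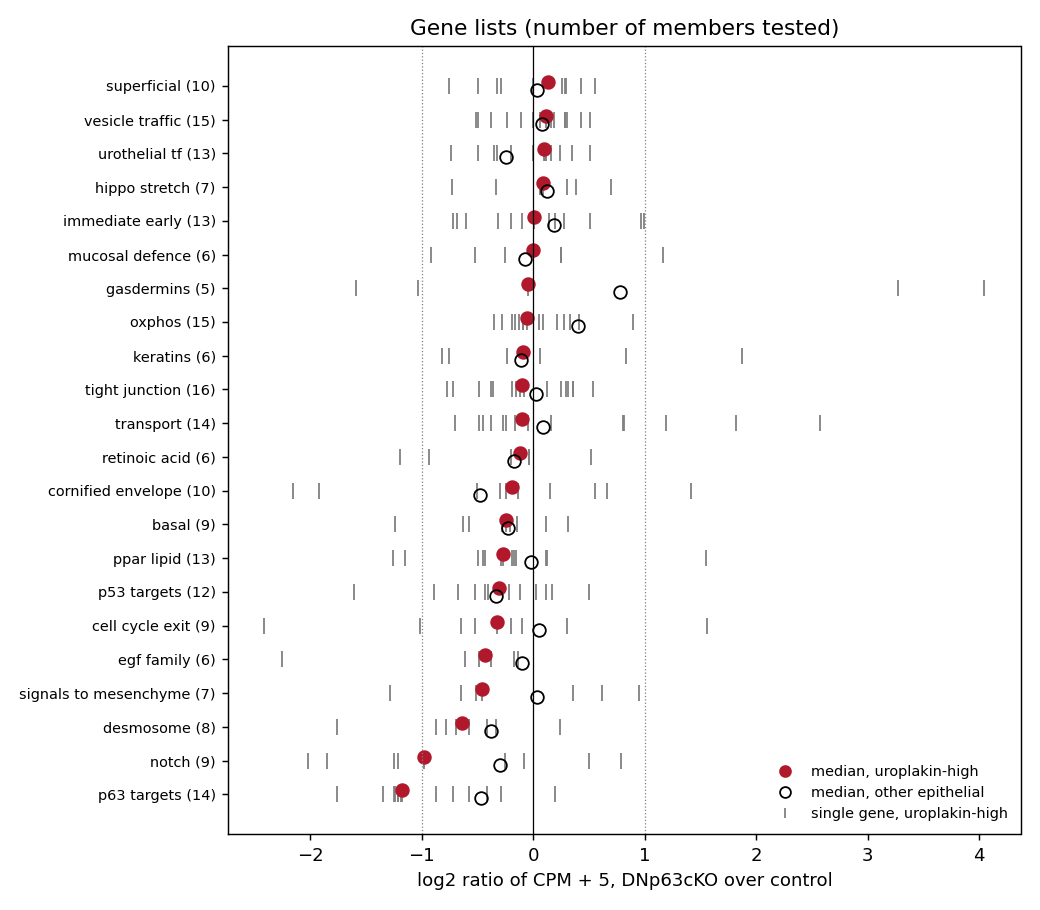
The DNp63cKO over control log2 ratio of CPM + 5 of each tested gene in uroplakin-high nuclei (ticks), by list, with the list's median in those nuclei (filled) and in other epithelial nuclei (open). The p63 target and Notch medians lie at -1.18 and -0.98, the superficial and vesicle traffic medians at 0.13 and 0.12, and dotted lines mark a 2-fold difference.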

How the data were processed

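The deposited tables hold raw counts of UMIs (whole numbers, unscaled) for each gene in each nucleus. Per the submitters' processing notes, the tools were STAR 2.7.11a with STARsolo, Seurat 4.0.5 and R 4.0.5, on build mm10. The strand, intron and barcode settings and the annotation are not given in these sources. The DNp63cKO library held 5528 nuclei and 9859451 UMIs, the control library 9062 nuclei and 16063644 UMIs, with at least 500 UMIs in each deposited nucleus.

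Counts of members were summed per library and scaled to CPM over 32589 genes. Intervals are exact Poisson for CPM, exact conditional binomial for count ratios (without the 5 CPM added to log2 ratios) and Clopper-Pearson for shares, at 95%. With 1 library per group no test was made. Genes with 20 or more UMIs were compared, and a difference was counted from 2-fold on. The log2 ratio, its interval and the 2-fold count were checked on simulated Poisson counts. This did not check the choice of nuclei, the thinning, the clustering or differences between mice. Mesenchymal-marker nuclei had a UMI of 2 or more of Myh11, Myocd, Col1a2, Col3a1 and Pdgfra and of at most 1 of the 12 epithelial genes. Sub-clusters came from Leiden clustering with scanpy 1.11.5 (resolution 0.5, 15 neighbours, 30 principal components, 2000 variable genes). Doublets were not removed in the values given, and removal of the top 5% of Scrublet scores was an alternative.

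Named genes were the 12 highest and 12 lowest genotype ratios among genes with 50 or more UMIs and 50 or more CPM in a library, the 12 highest and 8 lowest against other epithelial nuclei, the 6 largest differences between the classes in each direction, and members of 22 gene lists and 7 lists of other cells' markers. The members and lists were chosen with earlier results of these data known. Gene coordinates are from GENCODE M21, which held 32445 of the gene IDs.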

Additional observations from a re-analysis of the deposited data

Results flagged for a closer look

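Among the named and list genes with 20 or more UMIs in each class, 21 had genotype ratios of opposite sign in uroplakin-high and other epithelial nuclei, by at least 0.2 on each side. Set out here are 8 of them, 4 from the genes with the largest difference between the classes and 4 list genes whose counting intervals left out 0 in both classes. The other 13 had an interval that included 0 in at least 1 class. The difference between the classes was not tested, and 1 library stood behind each value. Flrt1, an adhesion gene of the FLRT family, had a log2 ratio of 1.03 in members and -0.81 in other epithelial nuclei, with 40 UMIs in DNp63cKO members and 46 in control members. Mpp5, a polarity scaffold gene, had 0.53 in members and -0.67 in the others, and Ankrd13a 0.29 and -0.93. Rab24, of the Rab family, had -0.54 in members and 0.82 in the others. The counting intervals of Ankrd13a and Rab24 in members (-0.26 to 0.87 and -1.25 to 0.02) include 0. Of the list genes, Fabp4, a fatty acid carrier, had -1.25 in members and 0.50 in the others, and Kcnma1, a potassium channel gene, -0.48 and 0.44. Dst, a cytoskeletal linker gene, had -0.21 and 0.32, and Atp5g3, of the mitochondrial ATP synthase, -0.35 and 0.40.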

How the results depend on the processing

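No paired analysis was possible because each genotype had 1 pooled library. Across 16 planned and 3 added alternatives (chosen after seeing the data), 23 of the 24 named genotype genes kept their sign. The exception was Gsdmc3 within sub-cluster 0, with 0 UMIs in DNp63cKO and 15 in control (-1.96), under the minimum of 20 UMIs. Within sub-cluster 0, 9 of the 23 were no longer 2-fold apart. Gsdmc2 ranged from 1.46 to 4.89, Ivl from -2.11 to -0.17, Pla2r1 from -2.46 to -0.55, Unc13c from -3.12 to -0.26 and Ly6d from -4.10 to -2.29. The list medians ranged from -1.21 to -0.71 for p63 targets, from -0.72 to -0.51 for desmosomes and from 0.02 to 0.20 for superficial genes. The Notch median was -0.98, but -0.40 in nuclei with no UMI of the 7 non-epithelial genes and -0.12 within sub-cluster 0.

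The 220 genes 2-fold higher in DNp63cKO members became 360 at 5 or more UMIs, 53 at 100 or more, 359 with 1 CPM added, 44 with 20 CPM added and 535 within sub-cluster 0. The 256 lower genes became 118 at 100 or more UMIs, 422 and 68 with 1 and 20 CPM added, 511 with free RNA subtracted, 405 in nuclei with Xist and no Y-linked UMIs, 444 with no UMI of the 7 genes and 1150 within sub-cluster 0. Median-of-ratios scaling gave 143 genes 2-fold higher in members than in other epithelial nuclei in both libraries, against 87. Low counts limit these numbers, since sub-cluster 0 held 43 DNp63cKO nuclei. The cause of the other moves was not tested.

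The members' share of epithelial nuclei was 29.5% in DNp63cKO and 20.6% in control for a cut at the upper 25%, 55.1% and 40.9% for one at the upper 50%, and 43.4% and 32.4% at 700 UMIs per nucleus. It was 36.4% in DNp63cKO nuclei with Y-linked and no Xist UMIs, and 30.3% in control with basal-marker and cycling nuclei kept. Removing the top 5% by doublet score took out 7 DNp63cKO and 16 control members. The free RNA estimate from 16 mesenchymal genes was 19.1% in DNp63cKO and 13.7% in control.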
